A study of Mus musculus with 9 samples.

Results

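Connexins are the proteins that build gap junctions, and 5 of their genes, Gja1, Gja4, Gja5, Gjb2 and Gjc1, are described here in mouse ovaries with and without the estrogen receptor ERβ. The members were chosen by gene name, with earlier results of these data known. Each was found as 1 row of the count table, so that they are 5 of the 20 connexin genes listed and 5 of 46078 genes in all. The study made RNA-seq libraries of whole ovaries from 5 WT and 4 ERβKO mice on the C57BL/6J strain, 1 library per ovary sample. The ERβKO mice lack exon 3 of Esr2, the gene of ERβ, in every cell, through a floxed allele and a ubiquitous Rosa26-Cre deleter, and the WT mice were offspring without Cre. Over all experiments the mice were aged 4 to 20 weeks, and no stage of the estrous cycle was selected. The labels call all 9 ovaries untreated, while a treatment text shared by all of them describes a diet and an injected ligand, so that the diet of each mouse, and whether it was injected, are not known here.

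Connexins assemble into a ring in the cell membrane, and the rings of neighbouring cells dock to form a channel through which ions, cyclic nucleotides and small metabolites pass. In the ovarian follicle, connexin 43, encoded by Gja1, couples granulosa cells to each other, and connexin 37, encoded by Gja4, joins the oocyte to the granulosa cells around it. Cyclic GMP that passes from granulosa cells into the oocyte holds meiosis in arrest. Connexin 45 (Gjc1) is known from smooth muscle and the conduction system of the heart, connexin 40 (Gja5) from arterial endothelium, and connexin 26 (Gjb2) from epithelia and the cochlea.

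The coding sequence of all 5 members lies in 1 exon in GENCODE M21, and it spans 1146 bases in Gja1, 999 in Gja4, 1074 in Gja5, 678 in Gjb2 and 1188 in Gjc1. On GRCm38, the build of the files, Gja1 (ENSMUSG00000050953) lies on chromosome 10 from 56377300 to 56390419 on the plus strand, and Gja5 (ENSMUSG00000057123) on chromosome 3 from 96904693 to 97077416, also on the plus strand. On the minus strand lie Gja4 (ENSMUSG00000050234) on chromosome 4 from 127311421 to 127314039, Gjb2 (ENSMUSG00000046352) on chromosome 14 from 57098600 to 57104702 and Gjc1 (ENSMUSG00000034520) on chromosome 11 from 102799579 to 102819700. Of the exon bases of Gja5, 2.87% overlap the gene Gpr89 on the opposite strand, and it is not stated whether the counting used the strand; the exons of the other 4 members overlap no other gene.

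The promoters of Gja1, which gave nearly all of the connexin message, and of Gja4, the connexin of the oocyte surface, are shown because both were searched for the motifs of factors known in granulosa cells. They are RefSeq sequences of GRCm38.p6 that run from 250 bases before to 50 bases after the start site, and capitals mark a match to the AP-1 motif.
Gja1, chr10:56377050-56377349, plus strand: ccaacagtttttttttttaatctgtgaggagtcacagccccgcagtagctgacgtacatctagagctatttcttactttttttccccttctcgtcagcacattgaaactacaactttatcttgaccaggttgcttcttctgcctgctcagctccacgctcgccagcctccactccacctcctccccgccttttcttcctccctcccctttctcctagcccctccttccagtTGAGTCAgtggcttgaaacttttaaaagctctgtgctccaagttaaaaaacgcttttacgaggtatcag
Gja4, chr4:127313990-127314289, minus strand: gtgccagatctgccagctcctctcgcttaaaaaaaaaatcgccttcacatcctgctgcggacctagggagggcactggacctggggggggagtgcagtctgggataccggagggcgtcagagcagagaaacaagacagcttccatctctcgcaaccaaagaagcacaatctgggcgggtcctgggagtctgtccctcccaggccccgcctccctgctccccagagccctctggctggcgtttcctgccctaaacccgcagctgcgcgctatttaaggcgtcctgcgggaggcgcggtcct
Such a sequence was found for 4 of the 5 members, all but Gjc1. The motifs searched, on both strands, were the estrogen response element (ERE, the letters GGTCANNNTGACC), the binding motif of NR5A receptors such as LRH-1 (CAAGGTCA) and the AP-1 motif (TGAGTCA). The NR5A motif and the ERE share the letters GGTCA. Among 32851 promoters of the same length, 0.07% held the ERE, 1.56% the NR5A motif and 5.2% the AP-1 motif. The only match in the 4 members was the AP-1 motif of Gja1, which begins 19 bases before the start site on the plus strand. For the ERE and the NR5A motif, the 4 windows hold no match to these letters. Looser forms of the motifs, and the introns and intergenic regions where the paper found most ERβ sites, were not searched.

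Counted fragments totalled 12353740 to 16519975 in the WT libraries and 13088728 to 18717510 in the ERβKO libraries. Levels are given as the deposited FPKM, a level scaled for both gene length and library depth, which allows genes to be compared per length. Differences are log2 fold changes of ERβKO over WT from edgeR's quasi-likelihood test on the counts of the 16722 genes that passed the filter on low counts. A gene was called differentially expressed (a DEG) if its log2 fold change was beyond 0.4 in either direction, its p after Benjamini-Hochberg adjustment was below 0.05 and its FPKM averaged more than 1 in WT or in ERβKO ovaries. By this rule 287 of 16722 genes were DEGs, or 1.72%. DESeq2, the tool the study used, called 805 of 17283, or 4.66%. The count of Esr2 covers the whole gene and does not test the deletion: Esr2 averaged 16.7 ± 4.5 FPKM in the 5 WT and 16.1 ± 5.6 FPKM in the 4 ERβKO libraries (SD; log2 fold change -0.02, standard error 0.24, adjusted p = 0.966 in edgeR). On the first principal component of the 9 libraries, WT replicate 2 (9.43) lay between the other WT libraries (-43.8 to -15.6) and the ERβKO libraries (19.4 to 35.4). Markers of oocytes, granulosa, theca and luteal cells were present. Exceptions were the theca markers Insl3 and Fabp12 and the oocyte marker Figla, which did not pass the filter on low counts. Oviduct markers were also present, led by Ovgp1, an oviduct glycoprotein, at an average of 1774 FPKM with and 1677 FPKM without ERβ.

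Gja1 was by far the most abundant connexin message, and its mean level was 1.5 times as high in ERβKO as in WT ovaries. Gjc1 differed in the opposite direction, with a mean in ERβKO ovaries of 0.793 times the WT mean. In neither gene did the genotypes overlap in FPKM, and in both the unadjusted p of edgeR was below 0.05 and the adjusted p above it. The mean of Gja4 was higher in ERβKO ovaries with overlapping values, and Gja5 and Gjb2 showed no difference beyond the spread between ovaries.

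**Figure D1:**
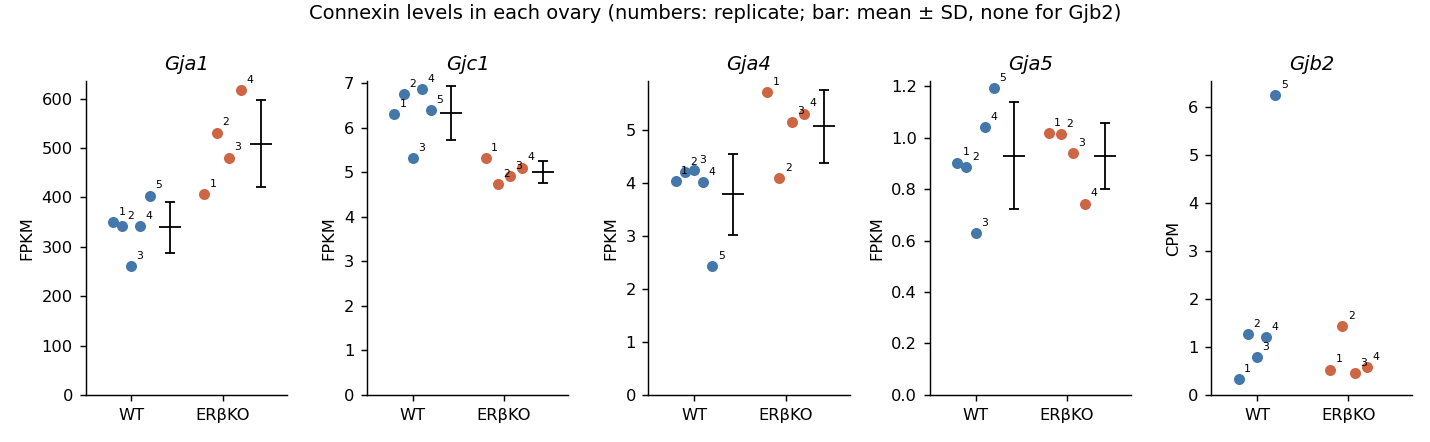
Level of the 5 connexin genes in each ovary, in FPKM and, for Gjb2, in CPM (counts scaled to the library total), for 5 WT (blue) and 4 ERβKO (orange) ovaries, with mean ± SD beside the points except for Gjb2. Every ERβKO point of Gja1 lies above the WT points and every ERβKO point of Gjc1 below them, in both genes by a narrow margin, while WT replicate 5 stands apart in Gja4 and Gjb2.

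Of the 5 members, edgeR called none a DEG, against 1.72% of all genes tested. In edgeR 2 of the 5, Gja1 and Gjc1, had an unadjusted p under 0.05, against 19.8% of all genes tested. DESeq2 called the same pair, Gja1 as higher and Gjc1 as lower, against 4.66% of the 17283 genes it tested. The genotypes did not overlap in FPKM in 2 of the 3 members with a mean FPKM over 1, against 8.15% of the 14178 tested genes above that level. The members were chosen with earlier results of these data known, so none of these shares is a test of the group. The median log2 fold change over the 5 members was 0.02, beside -0.0009 over all genes tested.

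In WT replicates 1 to 5, Gja1 was at 350.5, 341.2, 260.1, 341.5 and 403.7 FPKM. In ERβKO replicates 1 to 4, it was at 406.4, 531.1, 480.7 and 617.7 FPKM. All 4 ERβKO ovaries were above all 5 WT ovaries, but ERβKO replicate 1 barely exceeded WT replicate 5. WT ovaries averaged 339.4 ± 51.4 FPKM and ERβKO ovaries 509 ± 88.8 FPKM (SD, n = 5 and 4; two-sided exact permutation test, p = 0.0159, the smallest that 5 against 4 ovaries allow). On the scale of CPM, counts scaled to the library total, those ovaries changed places, at 1753 CPM in WT replicate 5 and 1736 CPM in ERβKO replicate 1, and the exact permutation test gave p = 0.0317. The log2 fold change of Gja1 was 0.56 (standard error 0.145, 95% interval 0.24 to 0.89), and the p from edgeR was 0.00273 before and 0.0726 after adjustment. DESeq2 gave 0.56 with an adjusted p of 0.00949. The call in edgeR hung on single ovaries: without ERβKO replicate 1 the log2 fold change was 0.67 and Gja1 was a DEG (adjusted p = 0.0467), and with any other ovary left out it was not. Gja1 alone received 0.112% to 0.267% of all counted fragments, 17126 to 42741 per library, so that counting error is a small part of its spread.

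In a whole ovary, a change in the number of cells that express a gene and a change in RNA per cell cannot be told apart, so the levels are set beside those of cell type markers. The 10 granulosa markers summed to between 551.8 and 684.8 FPKM with ERβ (WT) and to between 679 and 946 FPKM without it. The median log2 fold change of these markers was 0.53; 9 of the 10 had a positive log2 fold change, 4 had an unadjusted p under 0.05, all of them higher in ERβKO ovaries, and DESeq2 called 4. In edgeR 1 was a DEG, Hsd17b1, an enzyme of estradiol synthesis (48.2 ± 9 against 85.1 ± 18.6 FPKM, adjusted p = 0.0363). Inha held the largest part of the granulosa sum, averaging 352.3 FPKM with and 509.2 FPKM without ERβ. The paper counts Inha, Hsd17b1 and Fshr as direct targets of ERβ. How far the granulosa sum reflects cell number was not tested. Log2 fold changes with an unadjusted p above 0.05 were 0.739 (Inhba), 0.71 (Cyp19a1), 0.316 (Amh), 0.295 (Foxl2), 0.11 (Nr5a2) and -0.336 (Fst). ERβKO replicate 1, lowest of the ERβKO ovaries in Gja1, was also lowest in the granulosa sum, at 679 FPKM, and WT replicate 5, highest of the WT ovaries in Gja1, was highest among WT in that sum, at 684.8 FPKM. The order was not the same elsewhere: ERβKO replicate 4, highest of all in Gja1, was below ERβKO replicates 2 and 3 in the sum, at 831.7 FPKM, and WT replicate 3, lowest in Gja1, was at 574.4 FPKM, above WT replicates 1 and 4. The part of granulosa markers in the Gja1 difference was not tested. The 6 theca markers, of which 4 were tested, had a median log2 fold change of 0.49 and summed to 611 to 899.2 FPKM in WT ovaries and 954.3 to 1806 FPKM in those without ERβ. They did not go one way, with 2 positive and 2 negative log2 fold changes. An unadjusted p under 0.05 in edgeR was found for 2 that were higher and 1 that was lower in ERβKO ovaries. Cyp17a1, named after its values were seen, had the largest log2 fold change, 2.35 (standard error 0.94, unadjusted p = 0.0307, adjusted p = 0.205 in edgeR). Its values overlapped, at 48.4 ± 48.8 FPKM with and 245.7 ± 216.7 FPKM without ERβ. Aldh1a1, a retinaldehyde dehydrogenase with a large part in the sum, was a DEG (520.7 ± 85.7 against 1092 ± 233 FPKM, adjusted p = 0.0140 in edgeR). DESeq2 called 1 theca marker as higher, Aldh1a1, and 1 as lower, Mgarp, for which edgeR gave a log2 fold change of -0.79 (unadjusted p = 0.0112), named after its values were seen. The 10 luteal markers, 9 with a negative log2 fold change and none a DEG in edgeR (5 with an unadjusted p under 0.05, 3 called by DESeq2), had a median of -0.86, and their sums overlapped, at 3133 to 6740 FPKM with and 2588 to 4076 FPKM without ERβ. The part of theca and luteal markers was likewise not tested.

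Gja4 was at 4.04, 4.21, 4.26, 4.02 and 2.43 FPKM in WT replicates 1 to 5. In ERβKO replicates 1 to 4 it was at 5.72, 4.10, 5.17 and 5.32 FPKM. ERβKO replicate 2 lay within the WT range, the other 3 ERβKO ovaries lay above it, and WT replicate 5 was far below all others. The means were 3.79 ± 0.77 and 5.08 ± 0.69 FPKM (SD, n = 5 and 4; two-sided exact permutation test, p = 0.0476), or 9.16 and 11.9 CPM (p = 0.0794 by the same exact test). The log2 fold change of Gja4 was 0.36 (standard error 0.17, 95% interval -0.01 to 0.74), and the adjusted p was 0.266 in edgeR and 0.238 in DESeq2, so that no difference passed the threshold at 81 to 227 counts per library. Without WT replicate 5, the log2 fold change was 0.25.

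The 10 oocyte markers, such as Gdf9, Bmp15 and the zona pellucida genes, summed to 39 FPKM in WT replicate 5, the lowest of the 9 ovaries, and to 158.4 FPKM in ERβKO replicate 1, the highest. These were also the lowest and the highest ovary in Gja4. The order was not the same elsewhere. ERβKO replicate 3, lowest of the ERβKO ovaries in the oocyte sum at 83.6 FPKM, was above all 5 WT ovaries in Gja4. WT replicate 3 and ERβKO replicate 4, at 123.8 and 123.6 FPKM in that sum, had Gja4 at 4.26 and 5.32 FPKM. The oocyte sums ranged from 39 to 123.8 FPKM with and from 83.6 to 158.4 FPKM without ERβ and overlapped. All 9 of the oocyte markers tested had a positive log2 fold change (median 0.35), 0 had an unadjusted p under 0.05 and neither edgeR nor DESeq2 called any. The oocyte content of each ovary sample was not tested as a part of the Gja4 values. The 10 general endothelial markers, the vessel cells in which Gja4 is also known, summed to 117.8 to 144 FPKM with and 110 to 134 FPKM without ERβ, with a median log2 fold change of -0.09.

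**Figure D2:**
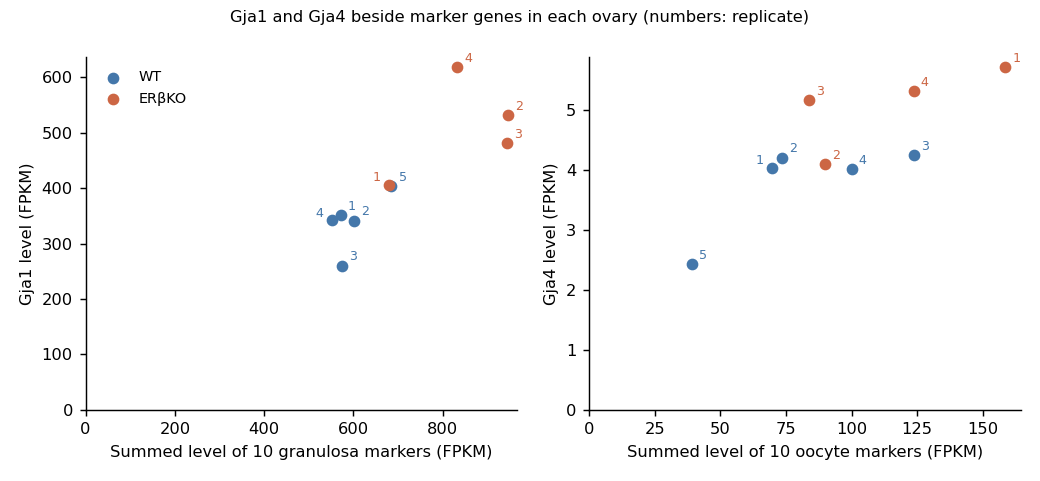
Level of Gja1 against the summed level of 10 granulosa markers (left) and of Gja4 against the summed level of 10 oocyte markers (right), all in FPKM, 1 point per ovary, WT in blue and ERβKO in orange, numbered by replicate. ERβKO replicate 1 and WT replicate 5 lie almost on each other in the left panel, and WT replicate 5 is lowest on both axes of the right panel.

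Gjc1 was at 6.31, 6.75, 5.32, 6.87 and 6.395 FPKM in WT replicates 1 to 5. In ERβKO replicates 1 to 4 it was at 5.31, 4.73, 4.92 and 5.10 FPKM. All 4 ERβKO ovaries were below all 5 WT ovaries, with WT replicate 3 and ERβKO replicate 1 next to each other at the border. The means were 6.33 ± 0.61 and 5.02 ± 0.25 FPKM (SD, n = 5 and 4; two-sided exact permutation test, p = 0.0159, the smallest possible), and the CPM values, 18.4 and 14.1 on average, did not overlap either. The log2 fold change of Gjc1 was -0.405 (standard error 0.098, 95% interval -0.62 to -0.19), and the p from edgeR was 0.00191 before and 0.0610 after adjustment. DESeq2 gave -0.41 with an adjusted p of 0.00616. Its size sat at the limit of 0.4 that a DEG had to pass. Without WT replicate 3, Gjc1 was a DEG in edgeR with a log2 fold change of -0.46 (adjusted p = 0.0295), and with any other ovary left out it was not.

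The 10 smooth muscle and pericyte markers, the cells in which connexin 45 is best known outside the heart, had a median log2 fold change of -0.28, and 8 of them were negative. None was a DEG in edgeR, 3 had an unadjusted p under 0.05 and DESeq2 called 1. Their sums, 689.3 to 1191 FPKM with and 696.5 to 843.9 FPKM without ERβ, overlapped, and WT replicate 3, lowest of the WT ovaries in Gjc1, was second highest of all ovaries in that sum, at 956.9 FPKM. WT replicate 2, second highest in Gjc1, had the highest sum, at 1191 FPKM. ERβKO replicate 2, lowest of all in Gjc1, had the lowest sum of the ERβKO ovaries, at 696.5 FPKM. The lowest sum of all, 689.3 FPKM, was that of WT replicate 5, whose Gjc1, at 6.395 FPKM, was above all ERβKO ovaries. The part of these cells in the Gjc1 difference was not tested.

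Gja5 was at 0.90, 0.89, 0.63, 1.04 and 1.19 FPKM in WT replicates 1 to 5 and at 1.02, 1.01, 0.94 and 0.74 FPKM in ERβKO replicates 1 to 4. Both genotypes had the same mean, 0.93 FPKM (SD 0.21 and 0.13, n = 5 and 4), and the ERβKO values lay within the WT range. For Gja5, the log2 fold change was 0.02 (standard error 0.23, 95% interval -0.49 to 0.52), and the adjusted p from edgeR was 0.977. At 37 to 74 counts per library, changes inside that interval in either direction could not be detected. The 6 arterial endothelial markers had a median log2 fold change of -0.04, and none had an unadjusted p under 0.05 or was called by edgeR or DESeq2.

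Gjb2 was at the edge of detection in 8 of 9 ovaries. Its counts were 4, 21, 12, 18 and 85 in WT replicates 1 to 5 and 9, 27, 6 and 8 in ERβKO replicates 1 to 4. Relative to depth, WT replicate 5 stood alone at 6.25 CPM, and the other 8 ovaries lay between 0.324 and 1.44 CPM. StringTie lists Gjb2 at 0 FPKM in WT replicate 1 and ERβKO replicate 4 although fragments were counted there, so it is described by counts. For Gjb2, the log2 fold change was -1.37 (standard error 0.77, 95% interval -3.08 to 0.35; adjusted p = 0.358 in edgeR). Without WT replicate 5 it was -0.25.

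Beyond the 5 members, the connexin family added little message. Of the 20 connexin genes, 9 passed the filter on low counts, and the other 11 did not; Gjd2, the connexin of electrical synapses, had no count in any ovary. The other tested connexins had mean levels below 1 FPKM in both genotypes. Neither edgeR nor DESeq2 called any of these. Gjc3, named after its values were seen, ranged from 0.142 to 0.737 FPKM in WT and from 0.416 to 1.29 FPKM in ERβKO ovaries, and its log2 fold change was 1.13 (standard error 0.48, unadjusted p = 0.0407, adjusted p = 0.232 in edgeR). Over the 9 tested connexins, 6 log2 fold changes were positive and the median was 0.12. Of the pannexins, which form channels of a similar build without docking, Panx1 averaged 4.64 ± 0.39 FPKM in WT ovaries and 3.97 ± 0.69 FPKM without ERβ (log2 fold change -0.26, adjusted p = 0.261 in edgeR), close in level to Gja4 and Gjc1.

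**Figure D3:**
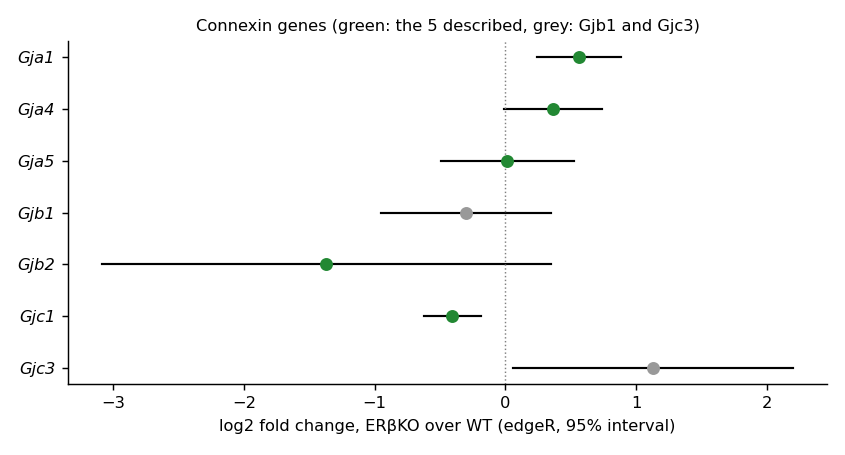
Log2 fold change of ERβKO over WT with its 95% interval from edgeR for 7 connexin genes, the 5 members in green and Gjb1 and Gjc3 in grey. The intervals of Gja1 and Gjc3 lie above 0 and that of Gjc1 below 0, none of them with an adjusted p under 0.05, and that of Gjb2 is the widest of those drawn.

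Per length, Gja1 made up 95.5% to 96.6% of the summed FPKM of the 20 connexins in WT ovaries and 96.5% to 97.8% in ERβKO ovaries. The share was higher in ERβKO ovaries by 1.18 percentage points (96.1 ± 0.47% against 97.3 ± 0.55%, SD, n = 5 and 4; two-sided exact permutation test, p = 0.0317), with 1 overlap, between WT replicate 5 and ERβKO replicate 1. With each ovary left out in turn, the exact p ran from 0.0286 to 0.0714 and was above 0.05 in 7 of the 9 cases. With fewer ovaries to divide, the smallest exact p possible was 0.0286 without a WT ovary and 0.0357 without an ERβKO ovary. The other 19 connexins together reached 13.7 ± 1.1 FPKM with and 14 ± 0.66 FPKM without ERβ (p = 0.698 by the same exact test), so the summed level outside Gja1 differed by less than its spread.

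Within this remainder the order of the messages was not the same in both genotypes. Gjc1 was above Gja4 in all 5 WT ovaries, by 1.25 to 2.63 times. In ERβKO ovaries the ratio of Gjc1 to Gja4 was 0.928, 1.16, 0.952 and 0.959, so that Gja4 was the higher of the pair in 3 of 4. The WT means of Gjc1 and Gja4 stood further apart than their SDs, and the ERβKO means, 5.02 and 5.08 FPKM, did not. Gjc1 held 43.4% to 49.8% of the level outside Gja1 in WT and 35.2% to 36.3% in ERβKO ovaries. The ratio of Gja1 to Gjc1 was 48.9 to 63.1 in WT and 76.5 to 121.1 in ERβKO ovaries. These shares and ratios combine the differences already given for the single genes and were chosen after those were seen, so no test is given for them.

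**Figure D4:**
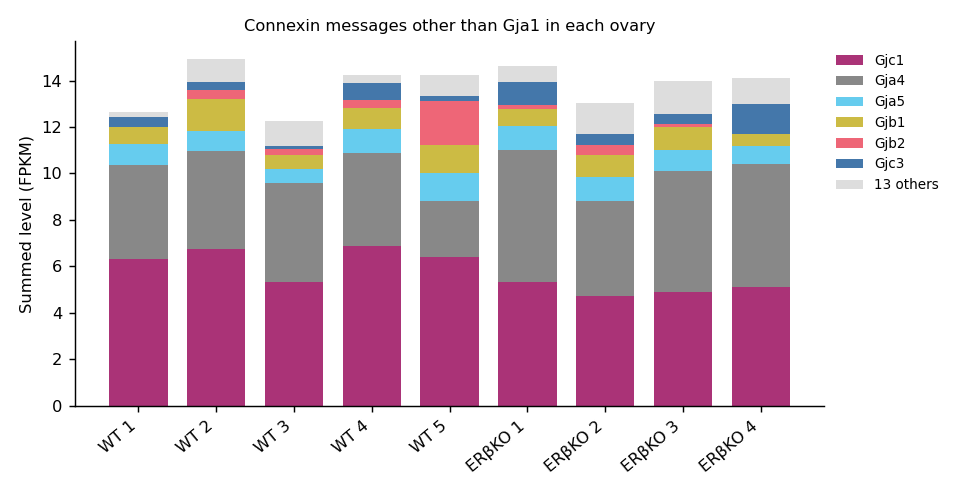
Summed level in FPKM of the 19 connexins other than Gja1 in each of the 9 ovaries, stacked by gene, with Gjb2 drawn at the 0 FPKM listed in WT replicate 1 and ERβKO replicate 4. The bars are of similar height, from 12.3 to 14.9 FPKM, while the Gjc1 part is smaller in each ERβKO ovary than in each WT ovary.

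Genes of proteins that anchor, modify or remove gap junctions showed no called difference. Of 8 partner genes, which include the scaffold Tjp1 (ZO-1), the actin binder Dbn1, the caveolar protein Cav1, the kinase Src and the ubiquitin ligase Nedd4, all 8 were tested, 0 were called by edgeR or DESeq2 and 0 had an unadjusted p under 0.05. Their log2 fold changes ran from -0.18 to 0.40 with a median of 0.09, and 5 of 8 were positive. Tjp1, which binds the tail of connexin 43, averaged 31 ± 1.5 FPKM with and 30.5 ± 1.8 FPKM without ERβ, with a log2 fold change of -0.05 and a 95% interval of -0.19 to 0.09.

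The 6 genes listed for the cyclic nucleotide signals of meiotic arrest were Nppc, Npr2, Pde3a, Gpr3, Adcy3 and Gucy1a3. EdgeR called 0 of 6, 2 had an unadjusted p under 0.05, 1 in each direction, and DESeq2 called 1, Nppc. The median log2 fold change was 0.08. Nppc encodes the natriuretic peptide precursor that granulosa cells secrete to drive cyclic GMP synthesis. It was at 1.80, 3.24, 2.33, 3.25 and 5.58 FPKM in WT replicates 1 to 5 and at 3.58, 9.97, 8.28 and 6.55 FPKM in ERβKO replicates 1 to 4. Of the ERβKO ovaries, 3 lay above the WT range and replicate 1 within it. For Nppc, the log2 fold change was 1.12 (standard error 0.37), and the adjusted p was 0.133 in edgeR and 0.0375 in DESeq2. Npr2, its receptor, was at 28.9 ± 8.8 and 37 ± 4.5 FPKM (log2 fold change 0.38, adjusted p = 0.286 in edgeR), and Adcy3, an adenylyl cyclase of the oocyte, at 4.68 ± 0.79 and 4.02 ± 0.47 FPKM (log2 fold change -0.33, adjusted p = 0.213).

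Across the 9 ovaries, after the mean of each genotype was taken out, the members did not vary together. Pearson's r of log2 CPM between pairs of members ran from -0.913, for Gja4 and Gjb2, to 0.609, for Gja5 and Gjb2. WT replicate 5 was the lowest ovary in Gja4 and the highest in Gjb2. The gene most like Gja1 in this measure, among 14177 tested genes that averaged over 1 FPKM in WT or ERβKO ovaries, was Ctnna2, an alpha catenin (r = 0.971), followed by 1700008J07Rik (r = 0.956) and Commd10 (r = 0.948). Ctnna2 was lower in ERβKO ovaries (2.18 against 0.959 FPKM, log2 fold change -1.22, adjusted p = 0.0225 in edgeR), opposite in sign to Gja1. The genes most like Gja4 were 1110065P20Rik (r = 0.973) and Rnf215 (r = 0.962), and those most like Gjc1 were Pink1 (r = 0.97), Fbrsl1 (r = 0.954) and Prkag2 (r = 0.952). For Gja5 they were Gm37607 (r = 0.986), Ccnt1 (r = 0.974) and Pglyrp1 (r = 0.963), and for Gjb2, at its low counts, Lins (r = 0.973), 9930021J03Rik (r = 0.948) and Syt5 (r = 0.945). These correlations describe 9 libraries that differ in depth and composition, and values of this size are the highest among all the genes ranked.

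Gja1 and Gjc1 kept their direction in each of the 18 alternative fits, which used another tool, normalization, filter or scale or left out a library, and each had an adjusted p under 0.05 in 2 of them. The adjusted p ran from 0.00949 to 0.182 for Gja1 and from 0.00616 to 0.251 for Gjc1. In the 7 libraries whose number in the labels is below 200, which leave out WT replicates 4 and 5, the log2 fold change was 0.68 for Gja1 and -0.35 for Gjc1. The adjusted p of Gja4 was above 0.05 in all 18.

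**Figure D5:**
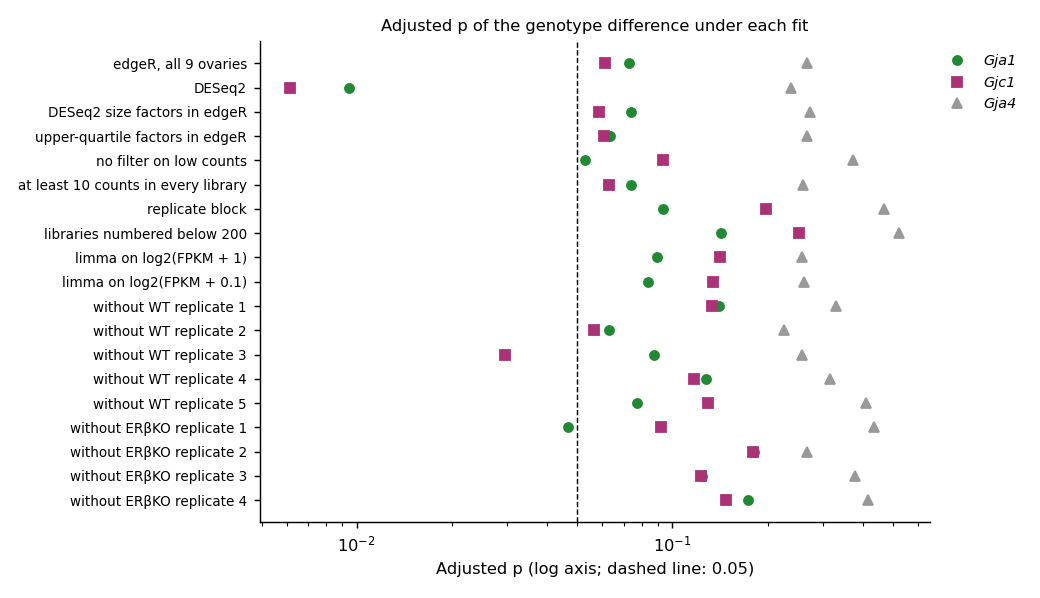
Adjusted p, on a log axis, of the difference between genotypes in Gja1, Gjc1 and Gja4 under edgeR with all 9 ovaries and under each of 18 alternative fits, with a dashed line at 0.05. Gja1 lies left of the line with DESeq2 and without ERβKO replicate 1, Gjc1 with DESeq2 and without WT replicate 3, and Gja4 lies right of it in every fit.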

How the data were processed

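The 9 libraries (5 WT, 4 ERβKO) were stranded and polyA-selected and were sequenced as 150 bp read pairs. Per the labels, reads were trimmed with Trim Galore and aligned with STAR, to GRCm38. From the alignments the authors obtained the deposited counts with featureCounts, as raw numbers of fragments for each gene, and the strand setting of the counting is not given in the sources used here. The deposited FPKM come from StringTie, which lists some genes with few fragments at 0. The deposited TPM values, also from StringTie, were used for 1 alternative. The deposited coverage values are mean signal per base and were read only to check the columns.

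The member rows were taken by gene symbol and FPKM by gene ID. The counts were fitted with edgeR 4.0.16 under R 4.3.3: filterByExpr left 16722 of 46078 genes, normalization was by TMM, and genotypes were compared with the quasi-likelihood test and Benjamini-Hochberg adjustment over all genes tested. The standard error was taken from the log2 fold change and the F statistic. The common biological coefficient of variation was 0.179. DESeq2 1.42.0 and, on log2(FPKM + 1) or log2(FPKM + 0.1), limma 3.58.1 were alternatives, with other normalizations and filters, the replicate number as a block, the libraries numbered below 200 and each library left out. For single values the exact permutation test (two-sided) ran over all 126 ways to divide 9 ovaries into 5 and 4. Other steps used Python 3.11.15, with pandas 2.3.3, NumPy 2.4.6 and SciPy 1.17.1. The tests were tried on simulated counts. Library totals were 12353740 to 18717510 counts.

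Named were the 5 members, the DEGs of the marker, partner and meiotic lists, other connexins with a mean FPKM over 1 (there were none) and, for each member, the 3 genes with the highest Pearson r to it after genotype centring, less a few genes left out of the text; other genes were named after their values were seen. The members and lists were chosen with earlier results of these data known. The marker lists cover granulosa, luteal, theca, endothelial, arterial endothelial, smooth muscle, surface epithelial, oviduct, macrophage and adipocyte genes, and oocytes. The other data types of the study were not analysed here.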

Additional observations from a re-analysis of the deposited data

Results flagged for a closer look

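WT replicate 5 lay further from the other WT ovaries than Dixon's 95% limit allows in Gja4, where it was lowest at 2.43 FPKM and 5.96 CPM, and in Gjb2, where it was highest at 1.89 FPKM and 6.25 CPM. ERβKO replicate 2 lay apart from the other ERβKO ovaries in Gjb2 on the CPM scale, at 1.44 CPM. Of 22 groups of values looked at, 5 held such an ovary, and chance flags about 1 in 20 groups. The FPKM and CPM values of a gene come from the same library, so that these 5 are not independent. WT replicate 5 was also lowest of the 9 ovaries in the summed oocyte markers, at 39 FPKM, and highest in the summed luteal markers, at 6740 FPKM. Whether these go together was not tested.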

How the results depend on the processing

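Gja1, Gja4, Gjb2 and Gjc1 kept their direction under every alternative run, and the other results are as follows. With DESeq2 the log2 fold change was 0.56 for Gja1 and -0.41 for Gjc1, both past the threshold, so that 2 members, 2 connexins in all and 1 meiotic arrest gene were called in place of 0. All genes called, 287 in edgeR, were 805 with DESeq2, 155 with the replicate block, 51 in the libraries numbered below 200, and 160 or 180 with limma at a pseudocount of 1 or 0.1. With each ovary left out in turn, they ranged from 60 (without ERβKO replicate 2) to 919 (without WT replicate 2), with at least a 1.5-fold shift without WT replicates 1 (118), 4 (161) or 5 (110) and ERβKO replicates 3 (152) or 4 (80) as well. In these fits the members called, the connexins called and the meiotic arrest genes called each ranged from 0 to 1. The log2 fold change ranged from 0.463 to 0.665 for Gja1, from -0.46 to -0.374 for Gjc1, from 0.249 to 0.461 for Gja4, from -1.91 to -0.249 for Gjb2 and from -0.09 to 0.167 for Gja5. Gja5 was at 0.279 in the libraries numbered below 200 and at 0.162 with the replicate block, and turned negative without WT replicate 1 (-0.019), 2 (-0.017) or 3 (-0.09) and without ERβKO replicate 1 (-0.045), 2 (-0.006) or 3 (-0.028). For Gjb2 the log2 fold change was -0.26 with the replicate block and -0.088 in the libraries numbered below 200, and with at least 10 counts in every library it could not be tested. The Gja1 share of connexin FPKM differed by 1.02 to 1.43 percentage points with each ovary left out (exact p from 0.0286 to 0.0714), by 1.33 in the libraries numbered below 200 (exact p = 0.0571, the smallest possible is the same) and by 1.31 with the replicate numbers as 4 pairs (exact sign flips, p = 0.125, the smallest possible). The replicate block called 0 members. Deviations of WT and ERβKO ovaries with the same number correlated at 0.095, 0.13, -0.043 and -0.011, and 0 of 4 ERβKO ovaries correlated best with its own number. Correlations in 4 pairs cannot settle whether ovaries with the same number were paired in some way. Only WT has a replicate 5, so with the replicate block that ovary adds nothing to the genotype difference. The libraries numbered below 200 leave it out too. The cause of the shifts under the alternatives was not tested. Of the 5 members, Gjb2, at 4 to 85 counts per library, and Gja5, at 37 to 74, had the fewest counts.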

Other observations

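Panx3, a pannexin that did not pass the filter on low counts and was singled out after its values were seen, had 7, 10, 3, 9 and 15 counts in WT replicates 1 to 5 and 0 counts in all 4 ERβKO ovaries. A count of 0 in 1 library allows up to 3 counts there, and the count in WT replicate 3 is at that limit. That limit is for 1 library and not for the 4 counts of 0 together. The genotypes did not overlap in CPM, and the level reached at most 1.1 CPM. The adipocyte markers, all 8 with a positive log2 fold change (median 1.40), summed to 138.9 to 266.9 FPKM in WT and 158 to 1033 FPKM in ERβKO ovaries, with ERβKO replicate 1 highest, and that ovary was lowest of the ERβKO ovaries in Gja1 and highest in Gja4. EdgeR called 0 of the 8, DESeq2 called 3, and all 8 had an unadjusted p under 0.05. Of the surface epithelial, oviduct and macrophage markers, edgeR and DESeq2 called none, 2, 1 and 0 of them had an unadjusted p under 0.05, and their median log2 fold changes were 0.23, 0.21 and 0.06.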
